A study of Mus musculus with 9 samples.

Results

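The translation initiation factors were taken as the genes whose symbol begins with Eif and a digit from 1 to 6, without the eIF4E-binding proteins and the Y-linked Eif2s3y. On the array they were 44 of 18193 genes that had a probe set, a group of short DNA probes, annotated with exactly 1 gene symbol. Each gene was read from 1 probe set, the one with the highest mean over all arrays, chosen among 123 probe sets. Of the 44 genes, 43 passed the filter on low signal and were tested, as were 13662 genes in all. The exception was Eif4a3, a helicase best known from the exon junction complex, which stood between 4.1 and 38.5 on the 9 arrays, below the minimum signal of 50 on every one. Eif1, Eif2s1, Eif3g, Eif3j and Eif4g1 were not analysed here, so the alpha subunit of eIF2 and the main eIF4G scaffold are missing from what follows.

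The arrays held RNA from the tibialis anterior, a fast hindlimb muscle, of male C57BL/6J mice that were 15 weeks old, with 1 array per mouse and 3 mice per group. Control mice were injected with saline. Mice of the DEX group were given intraperitoneal dexamethasone (DEX), a synthetic glucocorticoid, at 5 mg/kg every day for 7 d, and those of the DEX + TE group had the same injections and ate 2% turmeric extract (TE) in the AIN93-based diet. By the methods and the growth protocol TE feeding started 5 d ahead of the injections, but the sample titles place turmeric after DEX. Per the methods the mice were picked for body and muscle weights near the average, so they do not cover the full spread of each group, and there was no group with TE alone.

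Translation initiation brings the initiator tRNA, the small ribosomal subunit and the mRNA together. The factor eIF2 carries the tRNA in its GTP-bound form and is recharged by eIF2B, a step that eIF2 kinases block under stress by phosphorylating eIF2. The cap of the mRNA is bound by eIF4E, which joins the helicase eIF4A on the scaffold eIF4G, and eIF3 links this complex to the ribosome. In skeletal muscle initiation is the step at which insulin, amino acids and glucocorticoids are best known to act, largely through the phosphorylation of eIF4E-binding proteins and of eIF2, which an mRNA array does not measure.

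The question put to these genes was whether their mRNA levels differed after DEX injection and whether TE supplementation moved them. No initiation factor passed the test in any comparison. For DEX against control, 0 of 43 were called by limma at an adjusted p under 0.05, beside 0.6% of all genes, and the lowest adjusted p was 0.230, for Eif6. For DEX + TE against DEX, 0 of 43 were called, beside 0.00732% of all genes, with the lowest adjusted p of 0.632 for Eif2b1. For DEX + TE against control, 0 of 43 were called, beside 0.454% of all genes, with the lowest adjusted p of 0.329 for Eif2b3. Rank Product, the test that the methods name, called 0 of them in each of the 3 comparisons too, with lowest false discovery rates of 0.923, 0.969 and 0.8645. It called only 63, 42 and 111 of all 29269 probe sets tested, so its 0 among the factors says little. Limma with a mean-variance trend, which lets the assumed spread follow the signal, also called 0 of 43 each time, beside 4.91%, 0.0146% and 3.18% of all genes. A p that misses the threshold does not show that levels were equal, so the differences are given below with their 95% intervals.

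**Figure D1:**
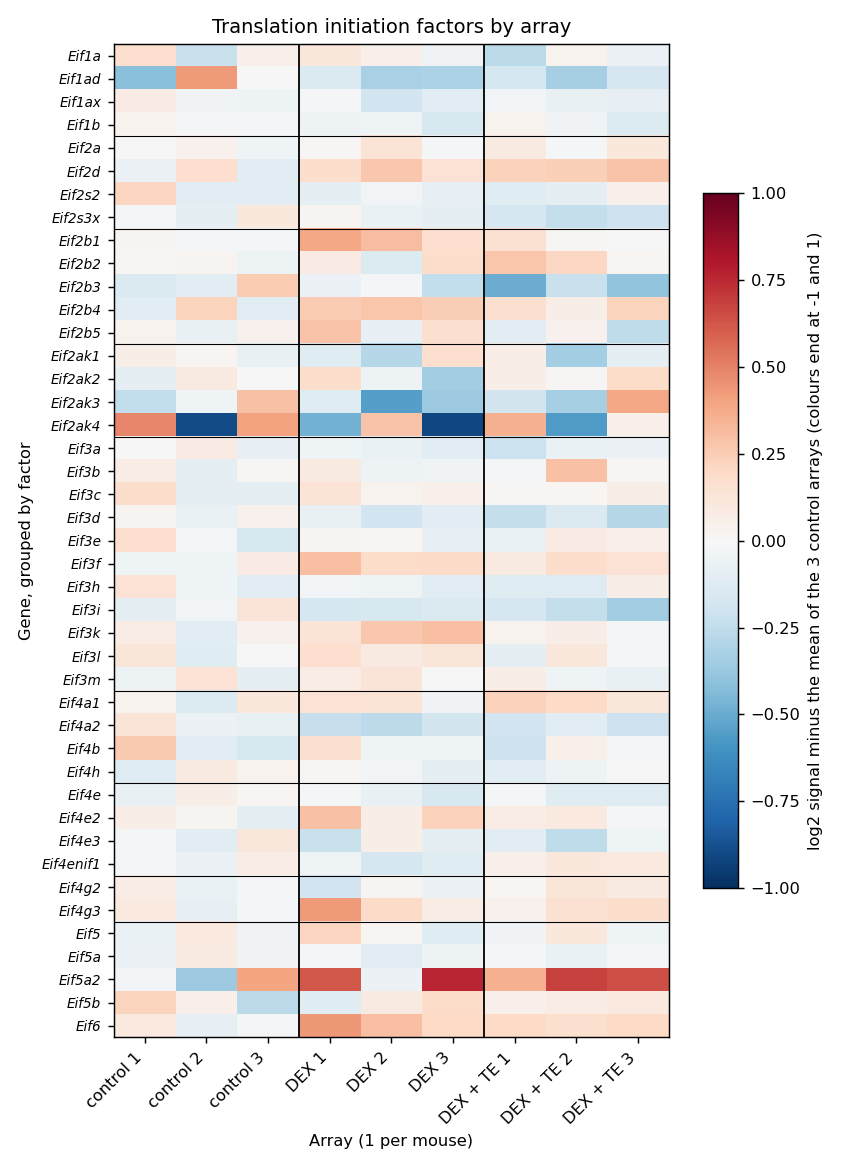
Each row is 1 of the 43 tested initiation factors and each column 1 array, and the colour is the log2 signal minus the mean of the 3 control arrays. Most cells are pale in all groups, and the strongest colours lie in Eif2ak4, Eif2ak3, Eif1ad and Eif5a2, whose control arrays differ among themselves as well.

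Without adjustment, 4 factors were higher in the DEX group at p under 0.05 (Eif6, Eif2b1, Eif3f and Eif3k) and 0 were lower, where 6.16% of all genes were higher and 9.15% lower. With TE, 0 were higher and 1 was lower (Eif2b1) than after DEX alone, beside 5.96% and 1.49% of all genes. For DEX + TE against control, 1 was higher (Eif2d) and 3 were lower (Eif2b3, Eif3i and Eif3d), beside 7.64% and 6.78%. In both directions together these were 9.3%, 2.33% and 9.3% of the factors, beside 15.3%, 7.44% and 14.4% of all genes. The comparisons share arrays, so their counts are not independent of each other. Over all 112 tested probe sets of these genes, the dimmer ones included, 0 were called. In the 3 comparisons 147, 4 and 111 of all 29269 tested probe sets were called. At an unadjusted p under 0.05 the 112 had 5 higher and 3 lower, 2 and 1, and 9 and 5. That count over all 29269 is not given here, so whether these numbers are usual cannot be told.

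The arrays themselves gave the same picture. In 9 of 43 factors the 3 DEX arrays did not overlap the 3 control arrays, with 5 higher (Eif2b1, Eif2b4, Eif3f, Eif3k and Eif6) and 4 lower (Eif1b, Eif3d, Eif3i and Eif4a2), and 9.66% of all genes did so upwards and 13.6% downwards. Between the DEX + TE and DEX groups 1 factor was higher without overlap (Eif4enif1) and 5 were lower (Eif2b1, Eif2b4, Eif2s3x, Eif3f and Eif3k), beside 9.73% and 5.27% of all genes. Between the DEX + TE and control groups 4 were higher (Eif2d, Eif3f, Eif4a1 and Eif6) and 5 lower (Eif2b3, Eif2s3x, Eif3d, Eif3i and Eif4a2), beside 12.4% and 12.3%. An exact permutation test of 3 against 3 arrays cannot give a two-sided p below 0.1, so non-overlap is given as a description.

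The differences were small in size. The median log2 fold change over the 43 factors was -0.01 for DEX against control, beside -0.03 over all genes. It was -0.02 for DEX + TE against DEX, beside 0.04, and -0.02 for DEX + TE against control, beside 0.02. An absolute log2 fold change under 0.3 was found for 39, 41 and 41 of the 43 in these comparisons, which is 90.7%, 95.3% and 95.3%, whereas 62.4%, 69.7% and 63.3% of all genes were that close to 0. The 95% interval lay within 0.6 of 0, the fold threshold of the methods, for 39 of 43 factors in each comparison, beside 42.1%, 47.9% and 43.1% of all genes. Those outside it for DEX against control were Eif1ad, Eif2ak3, Eif2ak4 and Eif5a2. With each array centred on its median, a scaling under which the all-gene medians became 0.07, -0.22 and -0.13, the medians of the factors became 0.09, -0.27 and -0.17, so the direction of the family depends on the scaling. The median of the factors minus that of all genes was 0.02, -0.06 and -0.04 in the deposited scaling and 0.02, -0.05 and -0.04 with centring.

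**Figure D2:**
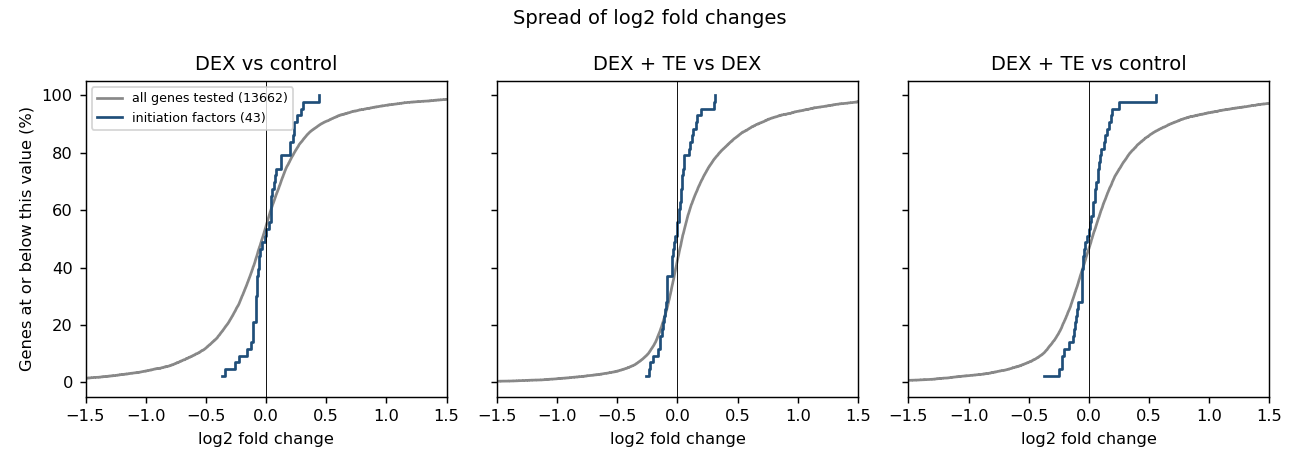
Each curve gives the share of genes, in percent, at or below a log2 fold change, for all 13662 genes tested and for the 43 initiation factors, in the 3 comparisons. The curve of the factors is steeper around 0, with 39, 41 and 41 of 43 within 0.3 of it.

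The factors also varied little between mice of a group. The within-group SD on the log2 scale had a median of 0.0949 over the 43, from 0.0543 for Eif5a to 0.63 for Eif2ak4, and a median of 0.236 over all genes. It was under 0.2 for 39 of 43 (90.7%) beside 42.9% of all genes. Their probe sets were also bright, with a median signal of 2693 beside 347.5 over all genes tested, and the part of brightness in these small spreads was not tested. The 3 factors with the widest intervals in the DEX comparison, Eif2ak4, Eif5a2 and Eif2ak3, had mean control signals of 74.2, 71.7 and 241.

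**Figure D3:**
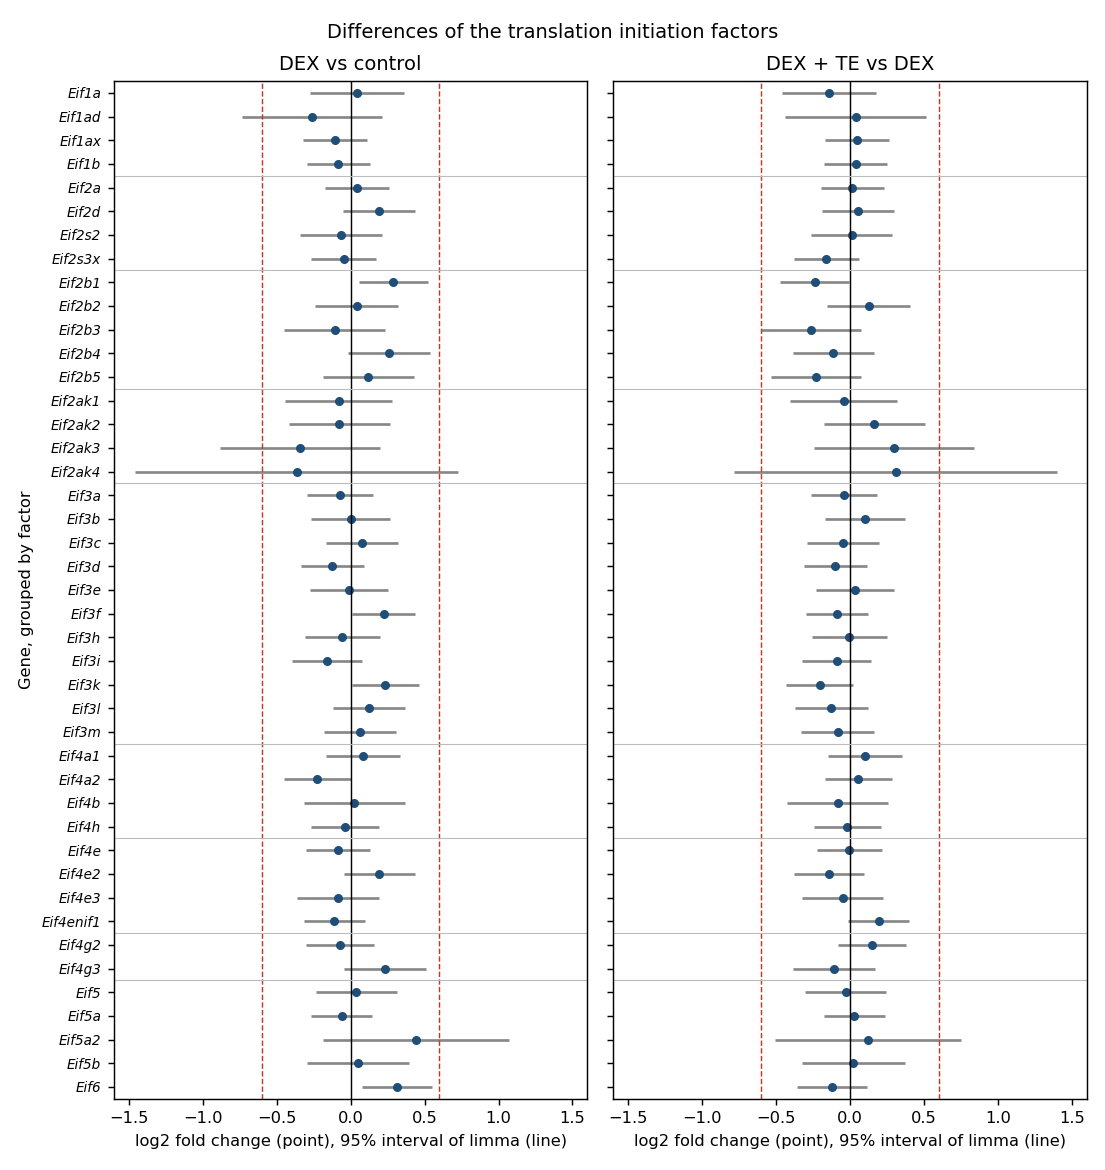
Points are log2 fold changes of the 43 factors and lines their 95% intervals from limma, for DEX against control and for DEX + TE against DEX, with dashed lines at 0.6 above and below 0. Most lines end inside the dashed lines, and the longest belong to Eif2ak4, Eif5a2, Eif2ak3 and Eif1ad.

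Subunits of eIF2B, the exchange factor that returns eIF2 to its active GTP-bound form, gave some of the most separated arrays. For DEX against control, 4 of 5 subunits were higher by value, also with each array centred on its median, and the median log2 fold change was 0.12. Against the DEX group 4 of 5 were lower by value in the DEX + TE group, and 5 of 5 with centring, with a median of -0.23 in the deposited scaling. Against the control group the DEX + TE group had 3 of 5 higher by value, 1 of 5 with centring, and a median of 0.05. No subunit was called in any of them.

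Eif2b1, the regulatory alpha subunit, had signals of 1745, 1701 and 1691 on the control arrays, 2242, 2120 and 1929 on the DEX arrays and 1898, 1723 and 1705 on the DEX + TE arrays. The DEX arrays all stood above those of both other groups. The log2 fold change was 0.29 (95% interval 0.06 to 0.52, limma adjusted p = 0.247) for DEX against control and -0.24 (-0.47 to -0.01, adjusted p = 0.632) for DEX + TE against DEX. Eif2b4, the delta subunit, had 2532, 3182 and 2528 on the control arrays, 3264, 3304 and 3245 on the DEX arrays and 3059, 2845 and 3188 on the DEX + TE arrays. The DEX arrays were again the highest, with 1 control array and 1 DEX + TE array close below them. Its log2 fold change was 0.26 (-0.02 to 0.54, adjusted p = 0.372) for DEX against control and -0.11 (-0.39 to 0.16, adjusted p = 0.850) for DEX + TE against DEX.

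The catalytic part of eIF2B is formed by its gamma and epsilon subunits. Eif2b3, the gamma subunit, had 793, 812 and 1049 on the control arrays, 841, 870 and 738 on the DEX arrays and 622, 751 and 669 on the DEX + TE arrays. Control and DEX arrays overlapped, while the DEX + TE arrays all lay below the control arrays, and the log2 fold change between those groups was -0.37 (-0.71 to -0.03, limma adjusted p = 0.329). Eif2b5, the epsilon subunit, had 1974, 1829 and 1983 on the control arrays, 2348, 1816 and 2155 on the DEX arrays and 1781, 1981 and 1620 on the DEX + TE arrays. All its groups overlapped, and DEX + TE against DEX gave -0.23 (-0.53 to 0.08, adjusted p = 0.718). Eif2b2, the beta subunit, differed by 0.04, 0.13 and 0.17 in the 3 comparisons in the chosen probe set, with every interval spanning 0. Its other probe sets disagreed with each other. They gave 0.34 and -0.27 for DEX against control and -0.33 and 0.53 for DEX + TE against DEX. Their intervals spanned 0 as well. The counts of eIF2B subunits given above therefore depend on the probe set read for Eif2b2.

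**Figure D4:**
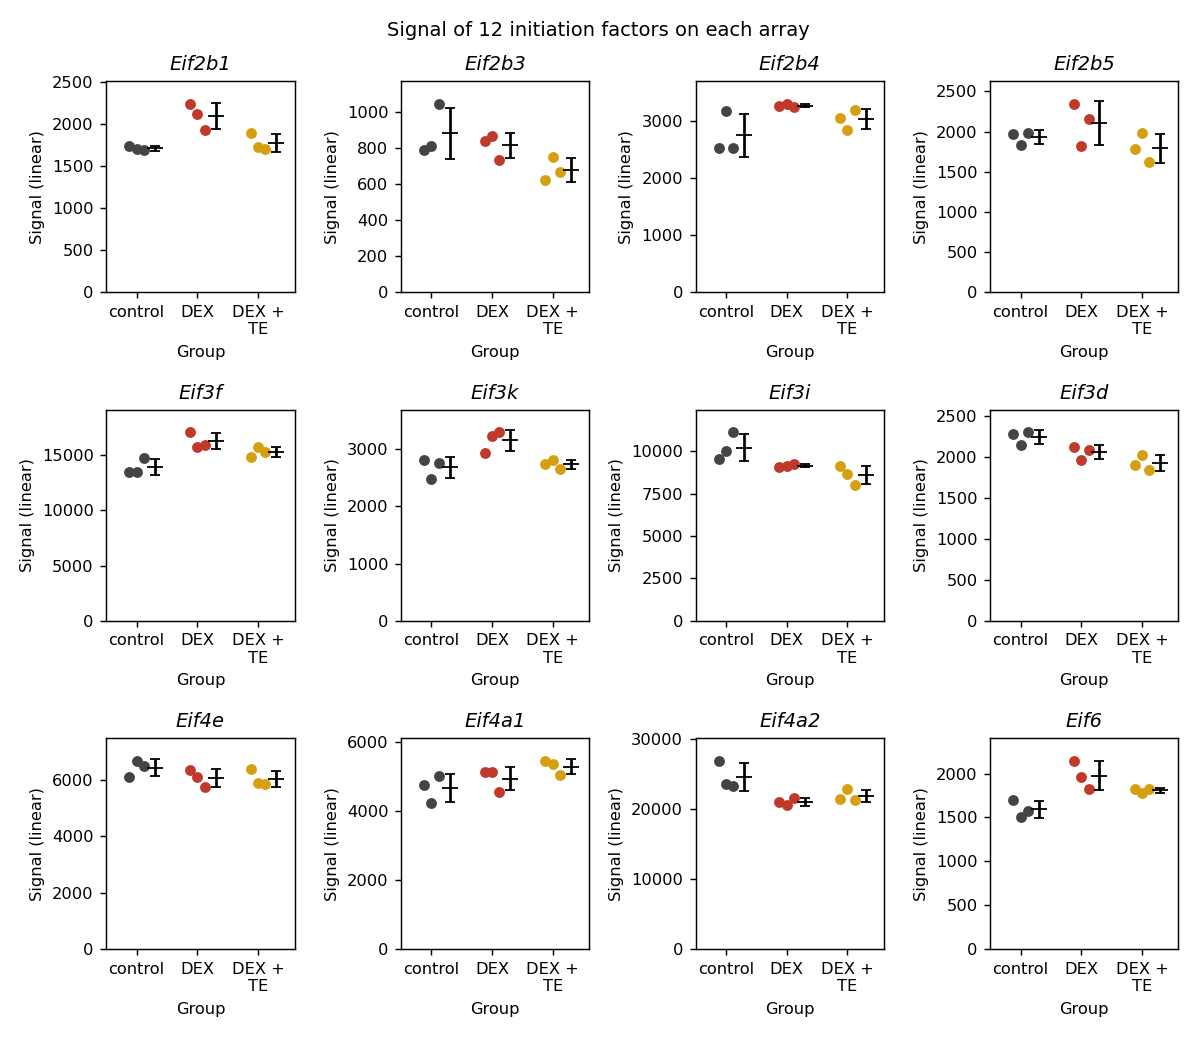
Points are the linear signal of 12 initiation factors on each of the 9 arrays, and bars the group mean ± SD (n = 3 mice), on axes that start at 0. The DEX arrays of Eif2b1, Eif2b4, Eif3f, Eif3k and Eif6 lie above the control arrays, those of Eif3d, Eif3i and Eif4a2 below, and no difference passed the test.

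Of the 5 factors whose DEX arrays all lay above the control arrays, 4 had an entry in the RefSeq promoter table used here, and the 250 bases before their start sites are shown because these members stood apart by value in the same direction. They are from GRCm38.p6, written 5′ to 3′ along the gene, at chr5:124579132-124579381 (minus strand) for Eif2b1, chr5:31193140-31193389 (minus strand) for Eif2b4, chr7:108934165-108934414 (plus strand) for Eif3f and chr7:28981889-28982138 (minus strand) for Eif3k. Capitals mark matches on either strand to the E-box CACGTG, the site of Myc-family factors, and to the CCAAT box, which reads ATTGG on the other strand. The core of a glucocorticoid response element, ACANNNTGT, was also searched and had no match in these 4 windows.
Eif2b1: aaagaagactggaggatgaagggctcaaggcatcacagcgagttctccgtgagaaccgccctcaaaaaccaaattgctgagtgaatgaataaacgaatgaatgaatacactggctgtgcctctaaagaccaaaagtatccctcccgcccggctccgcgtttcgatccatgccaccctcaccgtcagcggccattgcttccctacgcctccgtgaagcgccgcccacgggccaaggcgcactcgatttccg
Eif2b4: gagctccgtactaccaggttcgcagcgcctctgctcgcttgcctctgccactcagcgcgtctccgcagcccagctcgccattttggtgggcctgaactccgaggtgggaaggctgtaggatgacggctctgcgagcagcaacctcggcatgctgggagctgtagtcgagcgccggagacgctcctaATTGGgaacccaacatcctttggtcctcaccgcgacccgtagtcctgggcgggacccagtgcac
Eif3f: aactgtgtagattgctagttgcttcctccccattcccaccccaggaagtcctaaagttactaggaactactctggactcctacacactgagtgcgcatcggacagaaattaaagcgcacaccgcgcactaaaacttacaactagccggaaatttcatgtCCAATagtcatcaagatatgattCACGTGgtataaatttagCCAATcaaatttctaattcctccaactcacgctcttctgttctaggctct
Eif3k: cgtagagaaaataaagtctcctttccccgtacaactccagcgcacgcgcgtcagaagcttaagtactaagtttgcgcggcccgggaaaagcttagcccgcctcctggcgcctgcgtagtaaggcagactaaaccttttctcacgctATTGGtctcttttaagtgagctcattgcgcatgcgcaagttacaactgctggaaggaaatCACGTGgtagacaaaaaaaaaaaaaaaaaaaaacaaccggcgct

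Both eIF3 promoters hold an E-box and a CCAAT box, the Eif2b4 promoter a CCAAT box alone, and the Eif2b1 promoter neither. Over the 36 initiation factors with a promoter entry, the E-box was found in 8 (22.2%), beside 6.86% of 27025 genes, in Eif1b, Eif3f, Eif3k, Eif4a1, Eif4e, Eif4h, Eif5a and Eif5a2. The CCAAT box was found in 13 of 36 (36.1%), beside 37.5% of all genes. The glucocorticoid response element core was found in 1 of 36 (2.78%), in Eif5a, beside 6.76% of all genes. None of the 3 motifs contains another, and a match says only that these letters stand in the window.

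The factors that carry the initiator tRNA had, in their chosen probe sets, log2 fold changes between -0.21 and 0.25 in the 3 comparisons. Eif2s2 and Eif2s3x encode the beta and gamma subunits of eIF2, and Eif2a and Eif2d encode single-chain proteins that can bring a tRNA to the ribosome outside the eIF2 route. For DEX against control 2 were higher and 2 lower by value (4 higher with centring), from -0.07 to 0.20. Eif2s3x had 5350, 5084 and 5817 on the control arrays, 5501, 5169 and 5051 on the DEX arrays and 4810, 4583 and 4676 on the DEX + TE arrays. The DEX + TE arrays lay below all others, and the log2 fold change was -0.16 (-0.38 to 0.06, limma adjusted p = 0.726) against the DEX group and -0.21 (-0.43 to 0.01, adjusted p = 0.389) against the control group. The other 2 probe sets of Eif2s3x gave -0.14 and -0.02 against the DEX group and -0.03 and -0.13 against the control group.

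Eif2d had 1628, 1903 and 1577 on the control arrays, 1916, 2042 and 1873 on the DEX arrays and 1988, 1997 and 2064 on the DEX + TE arrays. The DEX + TE arrays lay above the control arrays and overlapped the DEX arrays, and the log2 fold change against the control group was 0.25 (0.01 to 0.49, limma adjusted p = 0.355). In their chosen probe sets Eif2s2 and Eif2a did not separate in any comparison, with log2 fold changes from -0.07 to 0.06. A dim probe set of Eif2s2 had mean signals of 49.0, 39.8 and 79.0 in the control, DEX and DEX + TE groups. It gave 1.02 (0.42 to 1.62, limma adjusted p = 0.423) for DEX + TE against DEX, without overlap. All brighter probe sets of Eif2s2 gave values from -0.07 to 0.10 there.

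The 4 eIF2 kinases, which slow initiation by phosphorylating eIF2, include Eif2ak3 and Eif2ak4, which were among the least precisely measured members. In the chosen probe sets all 4 were lower by value after DEX injection, with a median log2 fold change of -0.21, but only 2 of 4 with each array centred on its median, and 0 passed the test. Eif2ak3, the endoplasmic reticulum stress kinase PERK, had 200, 232 and 291 on the control arrays, 218, 163 and 186 on the DEX arrays and 209, 189 and 312 on the DEX + TE arrays. The groups overlapped, and the log2 fold change was -0.34 (-0.88 to 0.20, limma adjusted p = 0.543) for DEX against control and 0.30 (-0.24 to 0.84, adjusted p = 0.790) for DEX + TE against DEX. Eif2ak4, the amino acid sensor GCN2, had 95.8, 36.6 and 90.2 on the control arrays, 49.2, 83.1 and 36.3 on the DEX arrays and 87.2, 45.9 and 70.7 on the DEX + TE arrays.

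Signals of Eif2ak4 ran on both sides of the minimum of 50 in each group, and its interval for DEX against control was -1.46 to 0.73 around a log2 fold change of -0.36. Other probe sets of these kinases pointed the other way in the same comparison, with mean control signals of 63.9 and 52.1. That of Eif2ak3 gave 1.30 (-1.62 to 4.22). Its arrays read 2.79, 68.8 and 120 in control mice and 72.5, 62.3 and 75.8 after DEX. The value rests largely on the control array at 2.79. That of Eif2ak4 gave 0.71 (-0.21 to 1.64). The intervals span 0 in both probe sets of each kinase, so no direction can be given for either. Eif2ak1, the heme-regulated kinase HRI, and Eif2ak2, the double-stranded RNA sensor PKR, both had -0.08 for DEX against control in the chosen probe sets, with intervals of -0.44 to 0.28 and -0.42 to 0.26.

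The probe sets of Eif2ak1 also disagreed. Its second brightest had 465, 227 and 481 on the control arrays, 512, 743 and 779 on the DEX arrays and 818, 697 and 759 on the DEX + TE arrays. All DEX-injected arrays lay above the control arrays there, with 0.85 (0.13 to 1.57, limma adjusted p = 0.274) for DEX against control and 1.03 (0.31 to 1.75, adjusted p = 0.225) for DEX + TE against control. Another probe set of Eif2ak1 gave 0.26 for DEX against control without overlap, and neither was called. The other probe sets of Eif2ak2 gave -0.17 and -0.33 in that comparison.

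The 11 measured subunits of eIF3, the scaffold that holds the small ribosomal subunit and the mRNA complex together, moved apart by small amounts in both directions. For DEX against control, 5 were higher and 6 lower by value (9 higher and 2 lower with centring), from -0.16 to 0.24. After TE, 9 of 11 were lower by value than after DEX alone (11 of 11 with centring, 8 of 11 with quantile normalization), with a median of -0.08. Against the control group 6 were higher and 5 lower by value (0 higher with centring). All 11 intervals lay within 0.6 of 0 in each comparison, and 0 subunits were called.

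Eif3f is the subunit known in muscle as a substrate of the atrophy-associated ubiquitin ligase FBXO32. Its signals were 13508, 13488 and 14758 on the control arrays, 17099, 15772 and 15906 on the DEX arrays and 14838, 15715 and 15344 on the DEX + TE arrays. The 3 groups did not overlap, with DEX highest and control lowest. The log2 fold change was 0.22 (0.01 to 0.44, limma adjusted p = 0.321) for DEX against control and -0.09 (-0.30 to 0.12, adjusted p = 0.848) for DEX + TE against DEX. Eif3k, a small subunit at the edge of the complex, had 2815, 2476 and 2755 on the control arrays, 2943, 3226 and 3300 on the DEX arrays and 2745, 2804 and 2658 on the DEX + TE arrays. Its DEX arrays lay above both other groups, which overlapped each other, with 0.24 (0.01 to 0.46, adjusted p = 0.334) for DEX against control and -0.21 (-0.43 to 0.02, adjusted p = 0.680) for DEX + TE against DEX.

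Eif3i and Eif3d lay lower by value in both DEX-injected groups. Eif3i, a WD-repeat subunit, had 9548, 10005 and 11136 on the control arrays, 9065, 9119 and 9249 on the DEX arrays and 9110, 8668 and 8030 on the DEX + TE arrays. Every control array was above every DEX-injected array, and DEX + TE against control gave -0.25 (-0.48 to -0.01, limma adjusted p = 0.337), while its other probe set gave -0.18. Eif3d, a subunit that can itself bind the cap of some mRNAs, had 2275, 2142 and 2300 on the control arrays, 2124, 1959 and 2080 on the DEX arrays and 1897, 2024 and 1834 on the DEX + TE arrays. The control arrays were again the highest, and DEX + TE against control gave -0.22 (-0.44 to -0.01, adjusted p = 0.344). The chosen probe sets of the remaining subunits, Eif3a, Eif3b, Eif3c, Eif3e, Eif3h, Eif3l and Eif3m, lay between -0.13 and 0.13 in every comparison. No groups were separate in these. Other probe sets of these subunits ranged more widely. Dimmer ones of Eif3l gave 0.52 (0.01 to 1.04, limma adjusted p = 0.358) and 0.31 (-1.44 to 2.06) for DEX + TE against control. The first of these had separate groups.

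Among the cap-binding proteins Eif4e, the factor that recognises the cap, had 6104, 6683 and 6506 on the control arrays, 6346, 6114 and 5738 on the DEX arrays and 6374, 5895 and 5867 on the DEX + TE arrays. In this chosen probe set the groups overlapped. The log2 fold change was -0.08 (-0.30 to 0.13, limma adjusted p = 0.723) for DEX against control. It was under 0.01 in size for DEX + TE against DEX. Eif4e was measured by 4 probe sets, which gave -0.08, -0.18, -0.28 and -0.35 for DEX against control. In those at -0.28 (-0.50 to -0.06, limma adjusted p = 0.247) and -0.35 (-0.59 to -0.11, adjusted p = 0.188) all DEX arrays lay below the control arrays. Set against control, in the DEX + TE group the probe set with mean signals of 2960, 2439 and 2311 gave -0.36 with an adjusted p of 0.186, and 0.0330 when limma was fitted with a mean-variance trend. It was the only 1 of the 112 tested probe sets of the initiation factors that passed in that fit, and the brighter chosen probe set gave -0.09.

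Eif4enif1 encodes 4E-T, which binds eIF4E and takes it into the nucleus and into mRNA granules. It had 1301, 1263 and 1380 on the control arrays, 1277, 1170 and 1209 on the DEX arrays and 1362, 1412 and 1405 on the DEX + TE arrays. The DEX + TE arrays lay above the DEX arrays, with 0.19 (-0.01 to 0.40, limma adjusted p = 0.667), a sign that turned with each array centred on its median (-0.06). Eif4e2, a cap-binding protein of translational repression, differed by 0.20 for DEX against control and by -0.14 for DEX + TE against DEX, and Eif4e3 by -0.09 and -0.05, all with intervals that spanned 0.

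The helicase eIF4A unwinds the start of the mRNA. Eif4a2, which encodes a form of it, had 26978, 23701 and 23366 on the control arrays, 20990, 20564 and 21688 on the DEX arrays and 21558, 22851 and 21372 on the DEX + TE arrays. The control arrays were all above the DEX-injected arrays, with -0.22 (-0.45 to 0.00, limma adjusted p = 0.348) for DEX against control and -0.17 (-0.39 to 0.06, adjusted p = 0.479) for DEX + TE against control. Eif4a1, the other paralog, had 4766, 4233 and 5022 on the control arrays, 5147, 5129 and 4550 on the DEX arrays and 5464, 5359 and 5041 on the DEX + TE arrays. DEX + TE against control gave 0.18 (-0.07 to 0.43, adjusted p = 0.494), with separate groups, while the other 2 probe sets of Eif4a1 gave 0.22 and 0.04.

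The cofactors of the helicase had 0.03 for Eif4b and -0.04 for Eif4h for DEX against control in the chosen probe sets. The other 2 probe sets of Eif4b gave 0.22 and 0.32, with overlapping groups. For Eif4h the others gave values from -0.27 to 0.07, and the lowest of these (-0.52 to -0.02, limma adjusted p = 0.318) had its DEX arrays below the control arrays. Of the eIF4G scaffold family, Eif4g3 had 0.23 (-0.05 to 0.51, limma adjusted p = 0.429) for DEX against control and -0.11 for DEX + TE against DEX. Eif4g2, the relative that lacks the eIF4E-binding region, had -0.07 and 0.15 in these comparisons, with overlapping groups in the chosen probe set. Its other probe sets gave 0.08, 0.19, 0.15 and -0.86 for DEX against control and 0.05, -0.10, 0.42 and 0.93 for DEX + TE against DEX. In the first of them, the brightest, no groups overlapped. For DEX + TE against DEX the other, dimmer probe sets of Eif4g3 gave 0.54, 0.27 and 0.65, the last with 0.13 to 1.16 (limma adjusted p = 0.570).

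Eif6 sits on the large ribosomal subunit and keeps it from joining the small one too early. Among the chosen probe sets it had the lowest p of any initiation factor for DEX against control. Its signals were 1698, 1502 and 1572 on the control arrays, 2147, 1956 and 1823 on the DEX arrays and 1828, 1778 and 1829 on the DEX + TE arrays. The DEX arrays all lay above the control arrays, and the DEX + TE arrays lay above the control arrays and overlapped the lowest DEX array. The log2 fold change was 0.31 (0.07 to 0.55, limma adjusted p = 0.230), which is a fold of 1.24, for DEX against control and -0.12 (-0.36 to 0.11, adjusted p = 0.808) for DEX + TE against DEX. A dimmer probe set of Eif6, with mean signals of 80.8, 117 and 97.5, gave 0.58 and -0.75 in these comparisons, with adjusted p of 0.758 and 0.837.

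Eif5a, the hypusine-carrying factor that also acts in elongation, was the most evenly measured member. It had 17264, 19101 and 17539 on the control arrays, 17702, 16677 and 17337 on the DEX arrays and 17837, 17188 and 17679 on the DEX + TE arrays. The groups overlapped, with -0.06 (-0.26 to 0.15) for DEX against control. Its paralog Eif5a2 had 68.6, 54.3 and 92.2 on the control arrays, 108, 67.1 and 119 on the DEX arrays and 89.6, 112 and 109 on the DEX + TE arrays. These signals are near the minimum of 50 and overlap, and the largest difference was 0.56 (-0.07 to 1.19, limma adjusted p = 0.409) for DEX + TE against control.

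The chosen probe sets of the remaining members, apart from Eif1ad, lay close to 0 by value for DEX against control. Eif5, which triggers GTP hydrolysis by eIF2 at the start codon, and Eif5b, which joins the ribosomal subunits, had 0.04 and 0.05 for DEX against control. Eif1a, Eif1ax and Eif1b, which help the small subunit scan for the start codon, had 0.04, -0.11 and -0.08. Eif1b was 2624, 2537 and 2534 on the control arrays and 2477, 2489 and 2300 on the DEX arrays, so that the groups did not overlap, at a limma adjusted p of 0.721. Eif1ad, an eIF1A-like protein, had -0.26 (-0.74 to 0.21), with control arrays of 632, 1135 and 842 on both sides of the DEX arrays. Its other probe set, with a mean control signal of 753 beside 870, gave -0.003 (-0.42 to 0.42). The value of -0.26 therefore rests on 1 probe set.

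The partners and regulators of initiation, a list of 36 genes that holds the eIF4E-binding proteins, poly(A)-binding proteins, eIF2 phosphatase subunits and genes of the mTOR pathway, also gave 0 calls in the 3 comparisons. Without adjustment 6 were higher and 3 lower for DEX against control, 0 and 0 for DEX + TE against DEX, and 4 and 3 for DEX + TE against control. Their median log2 fold changes were 0.01, -0.04 and 0.04. These 9, 0 and 7 of 36 were 25%, 0% and 19.4% of the list, beside the 15.3%, 7.44% and 14.4% of all genes. The largest differences by value for DEX against control were those of Ppp1r15a, of Impact, which restrains the kinase GCN2, and of Eif4ebp1. Impact had 1.00 (-0.08 to 2.08, limma adjusted p = 0.381), with 821, 2404 and 2928 on the DEX arrays and 808 to 1075 on the control arrays, so that 1 DEX array lay among the controls.

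Eif4ebp1 encodes 4E-BP1, which holds eIF4E away from eIF4G until mTORC1 phosphorylates it. It had 4601, 3626 and 4024 on the control arrays, 8778, 7242 and 6436 on the DEX arrays and 5422, 6614 and 6029 on the DEX + TE arrays. Both DEX-injected groups lay above the control group, with the DEX + TE arrays between the others or overlapping the lowest DEX array. The log2 fold change was 0.87 (0.51 to 1.23, limma adjusted p = 0.0699) for DEX against control, -0.31 (-0.67 to 0.06, adjusted p = 0.697) for DEX + TE against DEX, and 0.56 (0.20 to 0.93, adjusted p = 0.197) for DEX + TE against control. The adjusted p for DEX against control ranged from 0.00165 to 0.199 over 18 settings and passed in 2 of them. Eif4ebp1 and Ppp1r15a, described next, are both in the gene list that the study drew from these arrays, so their values are no independent evidence. The probe set of Eif4ebp1 is of a kind whose probes may also bind similar transcripts. By the suffix x or s in their names, so are those chosen for Eif2b2, Eif3c, Eif3e, Eif3m, Eif4g2, Eif4h and Eif5a.

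Ppp1r15a encodes GADD34, which directs a phosphatase to eIF2 and so opposes the eIF2 kinases. It had 524, 466 and 525 on the control arrays, 1363, 1381 and 794 on the DEX arrays and 710, 1025 and 953 on the DEX + TE arrays. All DEX-injected arrays lay above the control arrays, with 1.18 (0.61 to 1.75, limma adjusted p = 0.0979) for DEX against control and 0.81 (0.24 to 1.38, adjusted p = 0.225) for DEX + TE against control. It passed in 3 of 18 settings for DEX against control, among them the fit without the third DEX array, whose 794 was the lowest of its group. Atf4, the transcription factor whose translation rises when eIF2 is phosphorylated, had 0.18 (-0.16 to 0.52), and Mtor 0.08 (-0.18 to 0.35).

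**Figure D5:**
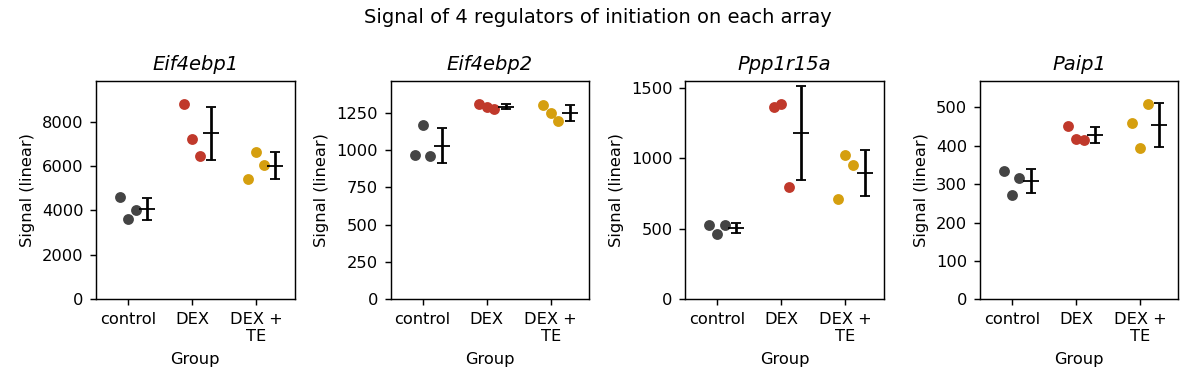
Points are the linear signal of 4 regulators of initiation on each of the 9 arrays, and bars the group mean ± SD (n = 3 mice), on axes that start at 0. The DEX arrays lie above the control arrays for Eif4ebp1, Eif4ebp2, Ppp1r15a and Paip1, and none of these differences passed the test.

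Eif4ebp2, a second eIF4E-binding protein, had 965, 1167 and 960 on the control arrays, 1307, 1290 and 1273 on the DEX arrays and 1306, 1248 and 1196 on the DEX + TE arrays. The control arrays lay below all others, with 0.33 (0.08 to 0.58, limma adjusted p = 0.231) for DEX against control and 0.28 (0.03 to 0.53, adjusted p = 0.317) for DEX + TE against control. Paip1, a partner of the poly(A)-binding protein that favours initiation, had 333, 273 and 316 on the control arrays, 451, 417 and 415 on the DEX arrays and 459, 393 and 508 on the DEX + TE arrays. It too was lowest in every control array, with 0.48 (0.17 to 0.79, adjusted p = 0.169) and 0.56 (0.25 to 0.86, adjusted p = 0.152). When DEX + TE was set against DEX, the lowest p of the list were those of Pdcd4, an inhibitor of eIF4A, at 0.24 (-0.01 to 0.48, adjusted p = 0.652), and of Tsc1, an upstream brake on mTORC1, at 0.28 (-0.02 to 0.58, adjusted p = 0.661).

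The later steps of translation gave the same count. Of 13 elongation and release factors 12 were tested and 0 called in each comparison, where 2 had an unadjusted p under 0.05 and a higher value and 1 a lower value for DEX against control, 1 and 0 for DEX + TE against DEX, and 1 and 0 for DEX + TE against control. These were 25%, 8.33% and 8.33% of the 12, beside 15.3%, 7.44% and 14.4% of all genes. Etf1, the release factor eRF1, had 0.60 (0.25 to 0.94, limma adjusted p = 0.142) for DEX against control and 0.53 (0.19 to 0.88, adjusted p = 0.199) for DEX + TE against control. Eef1a1, an elongation factor that brings tRNAs to the ribosome, had -0.29 (-0.50 to -0.08, adjusted p = 0.218) for DEX against control and 0.24 (0.02 to 0.45, adjusted p = 0.608) for DEX + TE against DEX. Of 50 cytosolic ribosomal proteins 49 were tested and 0 called. At an unadjusted p under 0.05 they had 1 higher and 4 lower, 1 and 0, and 2 and 1 in the 3 comparisons, which is 10.2%, 2.04% and 6.12% of the list. Their medians were -0.08, 0.07 and -0.02.

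Several array-wide measures moved with the groups. The median signal of an array was 76.0 to 86.2 in control mice, 71.3 to 77.7 after DEX and 84.7 or more after DEX + TE. Actin signal at the 3′ end over that at the 5′ end, a sign of RNA quality, had log2 values of 0.25 to 0.33, 0.10 to 0.43 and 0.38 to 0.54 in the same order, so that all DEX + TE arrays lay above the control arrays. The median of the factors on each array, relative to the control mean, ran from -0.05 to 0.03, and that of all genes from -0.03 to 0.05. The labelled tissue was checked by its markers, and 9 of 9 muscle fibre genes were at 50 or more on every array. Their summed signal ran from 511200 to 718100 in control mice, from 396800 to 503600 after DEX and from 492500 to 534700 after DEX + TE. All 9 were lower in the DEX group at an unadjusted p under 0.05, beside 9.15% of all genes, and 0 at an adjusted p under 0.05. The summed signal of 5 of 5 fibroblast markers was 24290 to 36860, 15870 to 18370 and 22600 to 24990, and 2 of these were called lower in the DEX group, where 0.6% of all genes were called in either direction. Of 3 adipocyte markers 0 were called for DEX against control, with 1.23 for Adipoq, 1.22 for Cidec and -0.40 for Fabp4, each without overlap. For DEX + TE against control Adipoq was called higher, at 2.19 (limma adjusted p = 0.0261), where 0.454% of all genes were called. The summed adipocyte signal, nearly all Fabp4, was 20580 to 24550, 16130 to 19690 and 19760 to 21870. That of leukocyte markers was 1291 to 1846, 1257 to 1831 and 1862 to 2118. That of endothelial markers was 1824 to 2339, 2196 to 2546 and 1808 to 1994. For DEX + TE against DEX 5 of 5 tested leukocyte markers were higher by value and 3 of 3 endothelial markers lower. Of all 13662 genes 7836 were higher and 5826 lower there. In both marker lists 0 were called in each comparison. In whole muscle a smaller share of a cell type and less RNA per cell cannot be told apart, and the part of these shifts in the values of the initiation factors was not tested.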

How the data were processed

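Per the labels and the methods, RNA of 9 tibialis anterior muscles (250 ng each) was hybridised to Affymetrix GeneChip arrays, 1 per mouse. The authors deposited 1 linear intensity for each of 45101 probe sets and array. The trimmed mean of every array is 500 and the medians run from 71.3 to 95.0, unlike the output of the Robust Multi-array Average named in the methods, which is on a log2 scale with equal distributions. The deposited intensities are therefore another summary, and the program behind it is not named in the sources used here. Between 58.5% and 65.2% of probe sets reached 50 on an array. With 3 arrays per group, their number limits how precise any value is.

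From these, 64 control probe sets were left out and 45037 kept, of which 34945 had 1 symbol, 932 several and 9160 none in the array annotation. The intensities were turned into log2 values with no offset. The 29269 probe sets with a group mean of log2 of 50 or more in any group were tested. The fit used the lmFit and eBayes functions of limma 3.58.1 (R 4.3.3), with 1 mean per group over the 9 arrays, and Benjamini-Hochberg adjustment covered all 29269. The called threshold was an adjusted p under 0.05. Rank Product with 100 permutations, the test of the methods, was coded in Python 3.11.15 (numpy 2.4.6, pandas 2.3.3), and figures were drawn with matplotlib 3.10.9. The scripts were tested on simulated data. All 44 members were matched by Entrez gene number to RefSeq (GRCm38.p6) and 36 had a promoter entry.

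Groups were taken from the sample titles, which number 3 replicates per group. Nothing ties equal numbers to one another, and same-numbered arrays did not deviate together (correlations from -0.02 to 0.05), so no block was used.

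Values on every array are given for the 6 members with the lowest p and the 3 with the largest change in each comparison, and for Eif2b5, Eif4e, Eif4a1, Eif4a2, Eif5a, Eif6 and Eif3f whatever their values. Of the other pathway lists the 4 genes with the lowest p per comparison, Eif4ebp1, Eif4ebp2, Mtor and Atf4 could be named. Eif1b, Eif1ad and Impact were named after their values were seen, as were the genes whose promoters are printed. So were the single probe sets of Eif1ad, Eif2b2, Eif2s2, Eif3l, Eif4e, Eif2ak1, Eif2ak3, Eif4g2, Eif4g3 and Eif4h. The members, lists and motifs were chosen with earlier results of these data known.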

Additional observations from a re-analysis of the deposited data

How the results depend on the processing

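In all 21 other settings, Rank Product and the fold threshold of the methods among them, 0 initiation factors were called in each comparison, and the lowest adjusted p was 0.0748 (limma with a mean-variance trend, DEX against control). That trend raised the calls over all genes to 4.91%, 0.0146% and 3.18% in the 3 comparisons. The median log2 fold change of the factors for DEX against control was 0.0902 with each array centred on its median, 0.0249 with quantile normalization, 0.0256 with probe sets whose name has no suffix x, s or a, and -0.0403 to 0.0382 with each array left out in turn, the highest without control replicate 1. For DEX + TE against DEX it was -0.272 with centring and -0.0442 to 0.00719 with arrays left out. For DEX + TE against control it was -0.170 with centring, 0.0178 with quantile normalization and -0.0377 to 0.0504 with arrays left out, the highest again without control replicate 1. The cause of the shift under centring was not tested.

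The factors whose groups did not overlap numbered 9 for DEX against control, 5 with centring and 9 to 19 with an array left out (19 without control replicate 1, 14 without DEX replicate 2). They numbered 6 for DEX + TE against DEX, 29 with centring, when 15 factors had a lower value and an unadjusted p below 0.05, and 6 to 12 with an array left out (12 without DEX replicate 2, DEX replicate 3 or DEX + TE replicate 3, 11 without DEX replicate 1 or DEX + TE replicate 2, 10 without DEX + TE replicate 1). They numbered 9 for DEX + TE against control and 9 to 17 with an array left out (17 without DEX + TE replicate 1, 16 without control replicate 1, 15 without control replicate 2). Fewer arrays overlap less by construction. With centring the median of all genes for DEX + TE against DEX also moved, from 0.04 to -0.22. No share of all genes without overlap is given for these settings. The counts therefore cannot be read as particular to the initiation factors.

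Of the partners and regulators 2 (Eif4ebp1 and Ppp1r15a) were called for DEX against control with a signal minimum of 100, 4 (these and Pabpc1 and Mknk2) with the trend, and 0 to 1 with an array left out, the 1 being Ppp1r15a without DEX replicate 3. For this comparison the minimum of 100 raised calls over all probe sets from 147 to 423, and the trend raised them to 1133. Without DEX replicate 3 they were 101. With the trend 1 of them (Eif4ebp1) was called for DEX + TE against control. With the trend 2 elongation and release factors (Etf1 and Eef1a1) were called for DEX against control and 1 (Etf1) for DEX + TE against control, and 1 ribosomal protein (Rpl37) for DEX against control. Pabpc1, Mknk2 and Rpl37 were named after their values were seen. Other settings called 0 from these lists.

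With the replicate number as a block 0 members were called, the lowest adjusted p being 0.313, 0.639 and 0.389, and calls over all probe sets went from 147 to 41, from 4 to 0 and from 111 to 30. The numbers are not known to pair the arrays.

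Of 1080 values of the 19 factors given on every array, 53 moved by more than 1 SD and 0 passed the test. Choosing probe sets by the linear mean and counting all 112 tested probe sets of the members were decided after seeing the data. The first called 0 members, the second 0 probe sets in each comparison, with the lowest adjusted p of 0.188, 0.423 and 0.186. With 3 arrays per group the median half-width of a factor's 95% interval was 0.245 on the log2 scale. A difference smaller than a factor's own half-width could not reach even an unadjusted p of 0.05. A call after adjustment needed a larger one.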
